A study of Mus musculus with 6 samples.

Results

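The genes described here write, maintain and erase DNA methylation: the DNA methyltransferase family *Dnmt1*, *Dnmt3a*, *Dnmt3b* and *Dnmt3l*, the maintenance cofactor *Uhrf1*, the dioxygenases *Tet1*, *Tet2* and *Tet3*, and the glycosylase *Tdg*. They were chosen by name. Each row of the deposited table is an entry, that is 1 RefSeq transcript, and where a symbol had several entries the one with the highest base mean was kept. Of the 9 genes, 8 had an entry, and together they held 12 of the 20633 entries. No entry matched *Tdg*, so its level was not analysed here and only its promoter window is described.

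The values come from the nuclear RNA of a mouse ES (embryonic stem) cell line, *Rybp fl/fl;Yaf2-/-*, which lacks *Yaf2* in every library and carries loxP-flanked *Rybp*. The line was grown from an isolated colony after Cas9 deletion of *Yaf2* exons. Cells were left untreated (UNT, n = 3) or had *Rybp* deleted with 4-hydroxytamoxifen (OHT, n = 3), at a dose of 800 nM over 96 hr. Serum and LIF were present throughout, and no OHT-treated line without floxed *Rybp* was among these samples. The base mean used here is the authors' mean over UNT and OHT libraries together, in normalized counts, so it gives the level of a gene in this experiment and not its response to OHT. No comparison of OHT with UNT was made, and values per library, their spread and their depth were not analysed here. No value below therefore carries an error, and no difference between genes was tested against replicate spread.

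DNA methylation at CpG dinucleotides is set by the de novo enzymes DNMT3A and DNMT3B, with DNMT3L as a cofactor that has no catalytic activity of its own. After replication, UHRF1 recognises hemimethylated DNA and brings DNMT1 to it, so that the pattern is copied to the new strand. TET enzymes oxidise 5-methylcytosine, and TDG removes the more oxidised forms so that base excision repair can restore cytosine. In the early embryo this system holds many germ-cell gene promoters silent, alongside Polycomb complexes.

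All 8 genes lay above the median entry. Their base means ran from 731 to 34878 normalized counts with a median of 3815, against a median of 307 over the 19198 entries above 0. The median of their percentiles among those entries was 91.3. *Tet1* stood apart at the top: its base mean of 34878 was the 11th highest of all entries, in a group that includes the nuclear noncoding RNA *Malat1* at 163609 and the PRC2 cofactor *Jarid2* at 36777. *Dnmt1* followed at 7105 (percentile 97.0), *Uhrf1* at 4995 (percentile 94.4) and *Tet2* at 4667 (percentile 93.8). The de novo group was lower and close together, with *Dnmt3b* at 2964, *Dnmt3l* at 2666 and *Dnmt3a* at 2065. *Tet3* was the lowest at 731 (percentile 64.8).

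**Figure D1:**
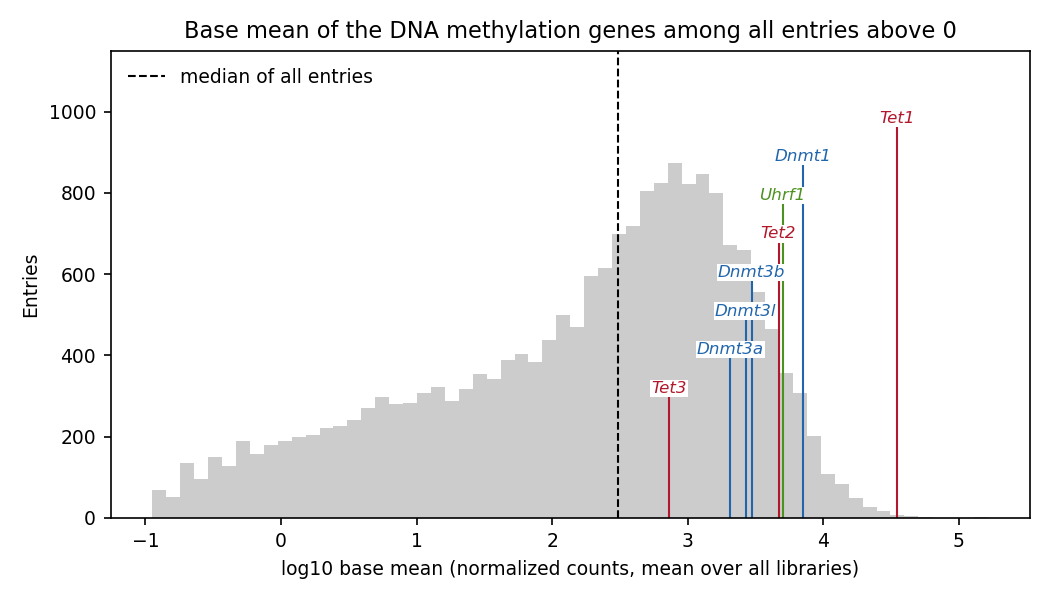
Histogram of the log10 base mean (normalized counts, mean over all libraries) of the 19198 entries above 0, in grey, with a line for each gene (red TET, blue DNMT, green *Uhrf1*); line height only separates the names. All 8 genes lie to the right of the dashed median of 307, and *Tet1* at 34878 lies in the far right tail.

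Base means do not correct for length, and these genes differ widely in it, from 20.1 kb for *Uhrf1* to 107 kb for *Dnmt3a*. The choice of length was therefore examined first. Among entries of 1 gene whose transcript spans are nested, the longer span had a base mean at least as high as the shorter in 738 of 758 pairs (97.4%). In the 162 pairs where the longer span has the smaller exon length, this held for 155 (95.7%). The counts therefore behaved as if taken over the whole span, and on that reading the difference between nested entries is the signal of the stretch that only the longer covers. Levels between genes are accordingly given per kb of the transcript span, introns included, with levels per kb of exon beside them where the order differs.

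Per kb of span, 7 of the 8 genes lay above the median entry, which was 14.05 normalized counts per kb over 18847 entries. *Tet1* was again highest, at 369 per kb (percentile 97.6). The maintenance pair came next, with *Uhrf1* at 249 per kb (percentile 96.1) and *Dnmt1* at 135 per kb (percentile 91.2). *Dnmt3l* was at 125 per kb (percentile 90.4), *Dnmt3b* at 77.4 per kb (percentile 83.1) and *Tet2* at 57.8 per kb (percentile 77.4). *Dnmt3a* was at 19.2 per kb (percentile 55.0), and *Tet3*, at 9.22 per kb (percentile 43.8), was the gene below the median. The ratio of the highest to the lowest of these levels was 40.0.

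**Figure D2:**
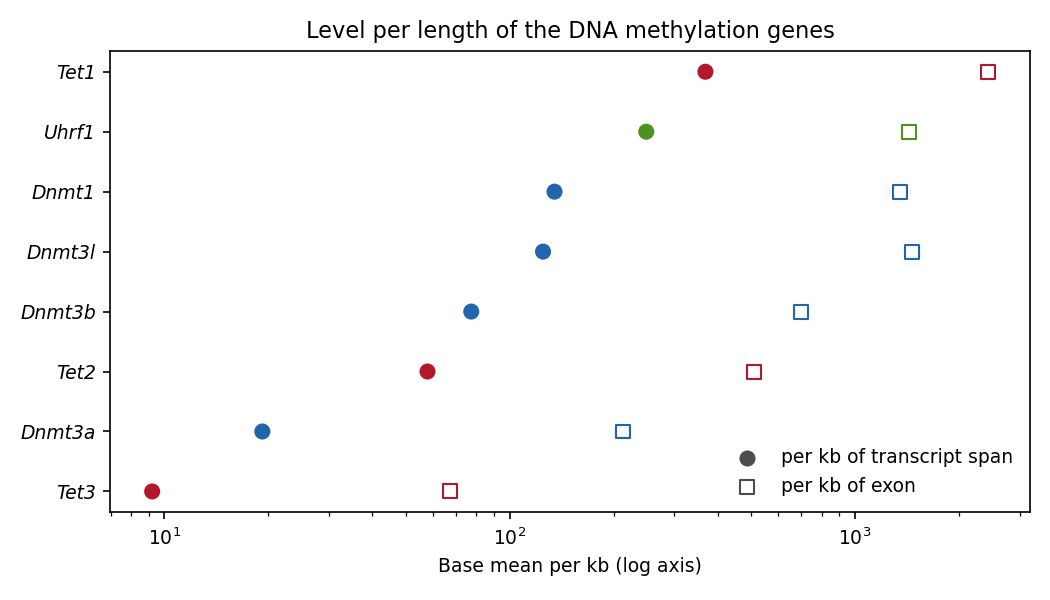
Base mean per kb of transcript span (filled circles) and per kb of exon (open squares) for each gene, on a log axis; red TET, blue DNMT, green *Uhrf1*. *Tet1* is highest and *Tet3* lowest on both scales, whereas *Uhrf1*, *Dnmt1* and *Dnmt3l* trade places, between 125 and 249 per kb of span and between 1354 and 1463 per kb of exon.

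The maintenance enzyme and its cofactor were both among the higher genes, and their order depended on length. *Dnmt1* had the larger base mean, whereas per kb of span *Uhrf1* was 1.84 times *Dnmt1*. Per kb of exon the levels were 1434 for *Uhrf1* and 1354 for *Dnmt1*, a ratio of 1.06. *Uhrf1* (chromosome 17 of mm10, 56303400 to 56323486, plus strand) has 17 exons, and exons make up 17.3% of its span. It overlaps no other GENCODE gene.

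The *Dnmt1* locus (chromosome 9, minus strand) held 2 entries that differ in their start. The longer, NM_001199432 (20907209 to 20959888), had a base mean of 7105, and NM_001199433 (20907521 to 20952605), which starts 7283 bp downstream, had 6994. The shorter entry thus accounted for 98.4% of the longer one. The stretch outside it, 7595 bp including 312 bp at the 3′ end, held 111 normalized counts, or 14.6 per kb, against 155 per kb inside. The windows at these starts are printed for comparison, from 250 bases before to 50 after each RefSeq start on GRCm38.p6, 5′ to 3′ on the minus strand, with CpG dinucleotides in capitals. The first lies at chr9:20959839-20960138 and the second at chr9:20952574-20952873, 18 bp from the start of its entry.
Dnmt1 NM_001199432: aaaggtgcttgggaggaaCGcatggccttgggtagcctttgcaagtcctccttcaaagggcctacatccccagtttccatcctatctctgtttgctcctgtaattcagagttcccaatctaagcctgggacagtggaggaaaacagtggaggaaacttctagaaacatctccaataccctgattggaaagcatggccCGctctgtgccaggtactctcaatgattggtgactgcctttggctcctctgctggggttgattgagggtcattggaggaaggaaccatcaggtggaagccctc
Dnmt1 NM_001199433: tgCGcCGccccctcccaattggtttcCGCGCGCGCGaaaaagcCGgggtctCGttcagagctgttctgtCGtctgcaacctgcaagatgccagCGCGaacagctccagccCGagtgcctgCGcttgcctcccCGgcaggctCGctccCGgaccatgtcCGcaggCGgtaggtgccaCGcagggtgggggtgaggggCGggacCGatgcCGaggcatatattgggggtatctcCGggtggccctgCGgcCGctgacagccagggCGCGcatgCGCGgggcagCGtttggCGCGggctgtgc
The window of the upstream start holds 2 CpGs and that of the downstream start 33, while the median over 32851 promoter windows of this length was 7 (quartiles 3 and 20).

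Of the de novo enzymes, *Dnmt3b* (chromosome 2, 153649453 to 153687730, plus strand) had 1 entry. Its base mean was 1.44 times that of *Dnmt3a*. Per kb of span it was 4.03 times the longer *Dnmt3a* entry, which was kept for its higher base mean, and 1.02 times the shorter one, so that the ratio rested on the entry. Its promoter window holds 30 CpGs.

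*Dnmt3a* (chromosome 12, plus strand) held 2 entries that share their 3′ end. NM_007872 runs from 3807030 to 3914443 and had a base mean of 2065. NM_153743, which encodes the shorter isoform known as Dnmt3a2, starts 84714 bp downstream, at 3891744, and had 1723. The shorter entry covers 22.7 of 107 kb and accounted for 83.5% of the longer entry's base mean. Inside it the level was 75.9 per kb. The 84.7 kb upstream held the remaining 342 normalized counts, or 4.03 per kb, so the level inside the shorter entry was 18.8 times that upstream of it. Exons are denser in the shorter entry (23.9% of its span, against 9.02% for the longer), and per kb of exon the levels were 318 for NM_153743 and 213 for NM_007872. The part of exon density in the step was not tested. The antisense RNA *Dnmt3aos* lies in the upstream stretch on the opposite strand and had a base mean of 0.339. With the shorter entry, *Dnmt3a* lay 3.95 times higher per kb of span than with the longer, and above *Tet2*.

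The windows at both *Dnmt3a* starts are printed with CpG in capitals. The upstream window lies at chr12:3806730-3807029 and the window of the shorter isoform at chr12:3891494-3891793, both on the plus strand of GRCm38.p6.
Dnmt3a NM_007872: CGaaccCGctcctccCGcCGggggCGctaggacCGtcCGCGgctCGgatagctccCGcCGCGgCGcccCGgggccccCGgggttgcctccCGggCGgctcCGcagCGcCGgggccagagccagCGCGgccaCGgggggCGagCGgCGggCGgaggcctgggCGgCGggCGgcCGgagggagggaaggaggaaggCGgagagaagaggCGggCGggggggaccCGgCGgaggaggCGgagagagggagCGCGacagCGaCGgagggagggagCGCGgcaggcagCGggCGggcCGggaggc
Dnmt3a NM_153743: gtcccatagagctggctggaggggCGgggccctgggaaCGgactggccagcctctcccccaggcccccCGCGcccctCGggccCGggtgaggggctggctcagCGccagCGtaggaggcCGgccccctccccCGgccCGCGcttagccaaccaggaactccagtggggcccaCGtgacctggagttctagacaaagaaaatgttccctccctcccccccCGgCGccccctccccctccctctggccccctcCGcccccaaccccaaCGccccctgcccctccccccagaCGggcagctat
The upstream window, 50 bp from the start of its entry, holds 46 CpGs, at percentile 98.6 of all windows, and the downstream window 18, at percentile 71.9. The lower level per kb thus lay beside the window with more CpGs, the opposite of the order at *Dnmt1*. Both patterns are descriptions of single loci.

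*Dnmt3l* (chromosome 10, plus strand) held 3 entries with a common 3′ region, and nearly all of its signal lay downstream of the middle start. NM_001081695 (78042287 to 78063622) had a base mean of 2666 and NM_019448 (78049842 to 78063622) had 2659. The 7555 bp that only the first covers held 6.70 normalized counts, or 0.887 per kb. NM_001284198 (78055335 to 78063615) had 1228. The 5500 bp between it and NM_019448 held 1431, or 260 per kb, and the 8.28 kb of the shortest entry itself 148 per kb. The step at the middle start was the largest of the 4 steps between starts at these loci, with the level inside NM_019448 217 times that upstream of it. That ratio rests on the small difference of 6.70 between base means of 2666 and 2659. Exons make up 12.2% of NM_019448 and 8.54% of NM_001081695, and the part of exon density was not tested at any of these steps. The 3 windows lie on the plus strand at chr10:78042037-78042336, chr10:78049592-78049891 and chr10:78055085-78055384, each exactly at its entry's start.
Dnmt3l NM_001081695: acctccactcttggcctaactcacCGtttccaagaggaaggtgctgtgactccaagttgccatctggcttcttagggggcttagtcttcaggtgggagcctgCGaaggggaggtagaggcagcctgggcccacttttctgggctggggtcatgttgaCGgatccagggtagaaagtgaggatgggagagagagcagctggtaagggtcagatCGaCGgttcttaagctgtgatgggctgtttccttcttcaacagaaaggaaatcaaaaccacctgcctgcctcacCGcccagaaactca
Dnmt3l NM_019448: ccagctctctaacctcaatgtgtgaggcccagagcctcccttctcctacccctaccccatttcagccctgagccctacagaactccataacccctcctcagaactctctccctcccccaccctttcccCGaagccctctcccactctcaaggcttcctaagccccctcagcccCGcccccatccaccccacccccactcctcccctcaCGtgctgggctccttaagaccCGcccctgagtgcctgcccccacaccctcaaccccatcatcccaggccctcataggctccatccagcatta
Dnmt3l NM_001284198: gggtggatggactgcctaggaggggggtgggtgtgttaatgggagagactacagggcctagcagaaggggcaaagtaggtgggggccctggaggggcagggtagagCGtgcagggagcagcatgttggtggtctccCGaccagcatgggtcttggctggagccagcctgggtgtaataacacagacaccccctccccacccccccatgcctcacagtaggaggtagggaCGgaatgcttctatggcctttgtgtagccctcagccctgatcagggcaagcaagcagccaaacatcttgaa
They hold 6, 4 and 3 CpGs, at percentiles 47.9, 38.0 and 31.4 of all windows. The *Dnmt3l* span overlaps the 5′ part of *Aire*, on the opposite strand, by 1324 bp, all of it upstream of the middle start, and *Aire* had a base mean of 480. Whether the authors' count used strand is not given in the sources used here.

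**Figure D3:**
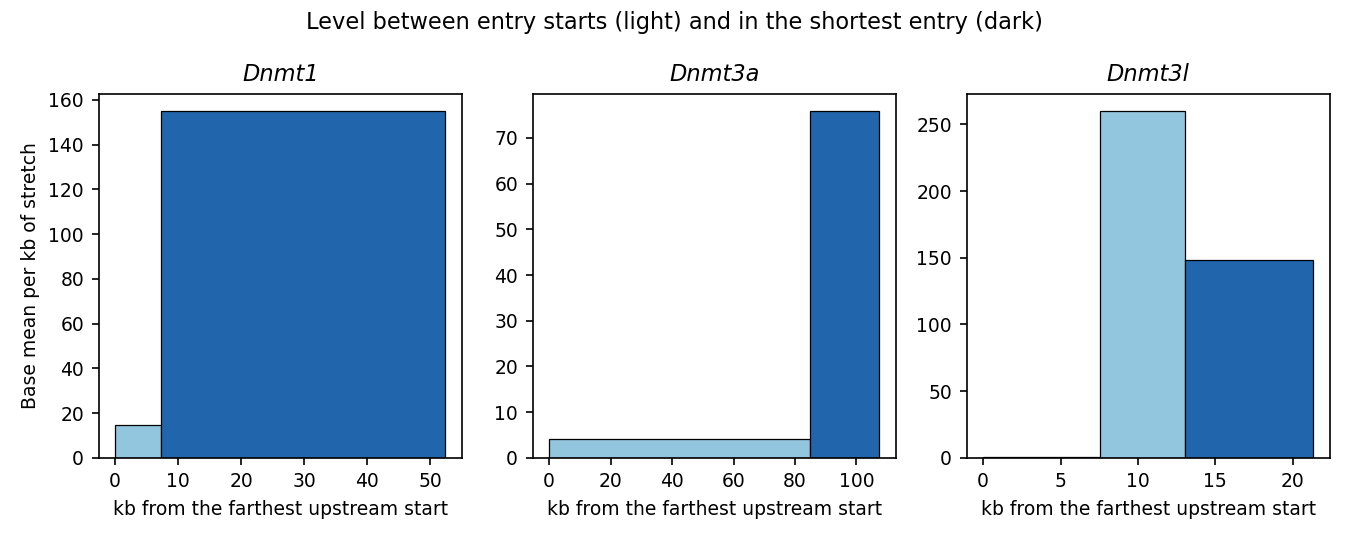
Base mean per kb along *Dnmt1*, *Dnmt3a* and *Dnmt3l*, by distance in kb from the farthest upstream start; light bars are stretches between starts (difference of nested entries divided by length), dark bars the shortest entry. The level steps up from 14.6 to 155 in *Dnmt1*, from 4.03 to 75.9 in *Dnmt3a* and from 0.887 to 260 in *Dnmt3l*; the light *Dnmt1* bar includes 312 bp at the 3′ end.

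The erasers spanned the whole range of the group. All 3 TET genes are long, between 79.3 and 94.5 kb, and their order was the same on every scale. *Tet1* was 6.38 times *Tet2* and 40.0 times *Tet3* per kb of span, and 4.77 and 36.2 times per kb of exon. *Tet2* was 6.27 times *Tet3* per kb of span. *Tet1* (chromosome 10, minus strand) runs from 62804577 to 62899118 in the GENCODE transcript matched to its entry, whereas the RefSeq gene of the same build is 82.9 kb long. With that length the level of *Tet1* was 421 per kb. A small nuclear RNA gene and an unclassified transcript lie within it on the same strand, and no entry was matched to either. *Tet2* (chromosome 3, 133463679 to 133544390) overlaps no other GENCODE gene. *Tet3* (chromosome 6, 83362373 to 83441675) holds the microRNA *Mir6374* and an unclassified transcript on its strand.

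Promoter windows of RefSeq were matched for all 9 genes, *Tdg* included, with 16 windows in all. Of these, 10 lie within 50 bp of the start of an entry used here and 5 lie farther off, among them the *Tet1* window at 11794 bp and both *Uhrf1* windows at 63 and 913 bp. The *Tdg* window has no entry to compare. Their CpG counts ran from 2 at the upstream *Dnmt1* start to 57 at *Tet2*, which lay at percentile 99.9. Motifs of factors that bind with the PRC1.6 form of Polycomb were searched on both strands. The palindromic E-box CACGTG, bound by MGA and MAX, occurred in 3 of the 16 windows (18.8%), against 7.15% of all windows: in *Tdg*, in *Dnmt3l* at the middle start (position 207 from the 5′ end of the window) and in *Dnmt3a* at the start of the shorter isoform (position 171). The E2F-type motif GCGGGA occurred in 6 of the 16 windows (37.5%), against 6562 of all 32851 windows, and the *Tet2* window held it 5 times. Among the 10 windows close to an entry start, 2 held CACGTG and 4 held GCGGGA. Both motifs contain a CpG, and many of the 16 windows hold more CpGs than the median of 7 over all windows. The background was not matched for CpG count, so the part of composition in these shares was not tested. Some windows of a gene overlap, and a match is a string of letters and does not show binding.

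Genes that work with these enzymes were drawn from 7 lists. Of their members 50 had an entry, and 43 of the 50 had a base mean above the median entry. Their median percentile was 78.3 by base mean and 82.9 per kb of span, against 91.3 and 86.7 for the 8 genes. *Tet1* had a larger base mean than each of the 50, and a higher level per kb than 45 of them. *Tet3* was above 1 of the 50 per kb. *Dnmt3a* was above 2 of them with its longer entry and above 25 with its shorter one.

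Partners of maintenance methylation were the highest list, with a median of 204 per kb. All 8 with an entry lay above the median base mean, from *Trim28*, the KAP1 corepressor, at 1543 per kb to *Cdca7l* at 20.7 per kb. *Hells*, a chromatin remodeller needed for methylation, was at 322 per kb and *Zfp57*, which protects imprints, at 492 per kb. Genes that direct de novo methylation through histone methylation were led by the H3K36 methyltransferase *Nsd1* at 177 per kb, and the lowest of the 4 was *Nsd2* at 66.8 per kb. Methyl-CpG readers were the lowest list, with a median of 46.2 per kb, from *Mbd3* at 113 per kb to *Zbtb4* at 10.4 per kb.

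On the erasing side, the TET partners ranged most widely. *Gadd45a* was at 399 per kb and the O-GlcNAc transferase *Ogt* at 241 per kb, whereas *Cxxc4*, which encodes a CXXC protein that binds TET2, was at 0.470 per kb with a base mean of 12.1. Of these 7 genes, 4 were above the median base mean. Of the 12 base excision repair genes 9 were above it. *Apex1*, the abasic site endonuclease, was highest at 449 per kb and the glycosylase *Neil3* lowest at 27.9 per kb of span. The place of *Neil3* depended on its span of 52.2 kb, since its base mean of 1454 was above the list median of 1057. Genes that supply the methyl donor were led by *Mat2a*, which makes S-adenosylmethionine, at 1070 per kb, with methionine synthase *Mtr* lowest at 27.1 per kb. The 4 genes of the metabolism of 2-oxoglutarate, the cosubstrate of TET enzymes, lay close together between 60.4 (*Ogdh*) and 120 per kb (*Idh3a*).

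**Figure D4:**
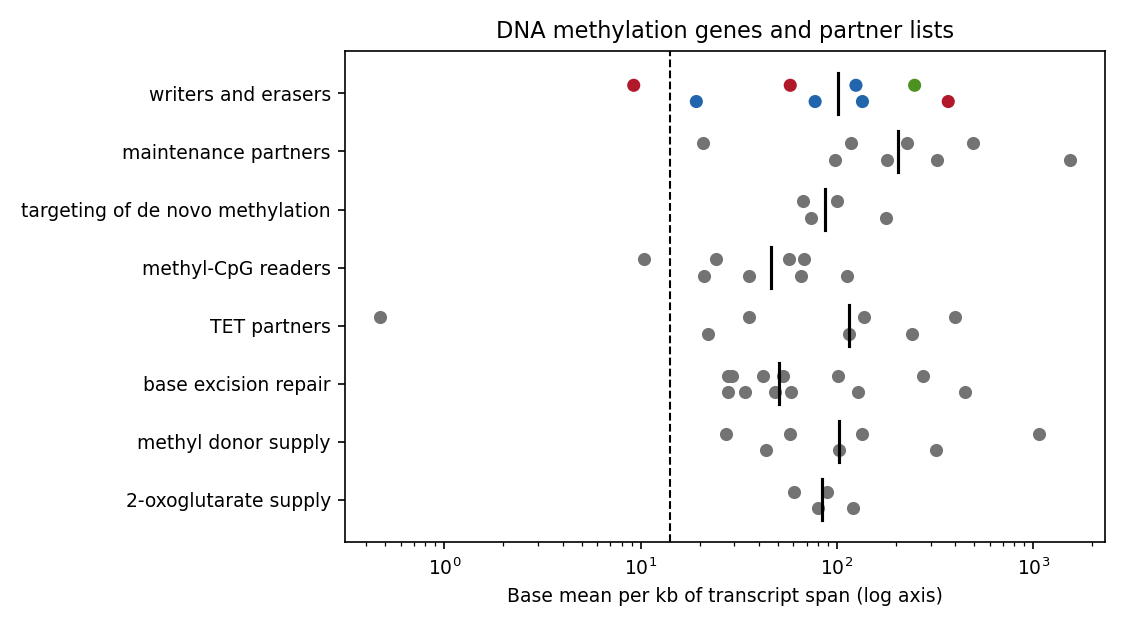
Base mean per kb of transcript span (log axis) of the 8 genes, coloured as before, and of the 50 partner genes by list, in grey; black bars are medians and the dashed line is the median entry at 14.05 per kb. Maintenance partners have the highest median (204 per kb), methyl-CpG readers the lowest (46.2 per kb), and *Cxxc4* lies far to the left at 0.470 per kb.

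The labelled cell type was checked against its markers. All 7 ES cell markers with an entry were above the median base mean, from *Klf4* at 2127 to *Tfcp2l1* at 12088, with *Pou5f1* at 3039 and *Nanog* at 2930. Of the 3 primed epiblast, 4 primitive endoderm and 4 trophoblast markers, 0 were above it, and their highest base means were 181 (*Otx2*), 269 (*Gata4*) and 79.9 (*Eomes*). Of 4 fibroblast markers *Col1a1* was above it at 369, and of 4 neural markers *Tubb3* at 625. These counts depended on the scale. Per kb of span, *Pou3f1* (45.9), *Otx2* (19.3), *Col1a1* (22.0), *Thy1* (21.2), *Tubb3* (59.0) and *Neurod1* (24.5) lay above the median entry of 14.05. The highest primitive endoderm and trophoblast markers, *Gata4* at 5.80 and *Cdx2* at 11.4 per kb, lay below it. The lowest ES cell marker per kb was *Esrrb* at 66.1. The targeted *Rybp* had a base mean of 13983 over UNT and OHT libraries together, and *Yaf2*, deleted in all of them, 3.24.

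**Figure D5:**
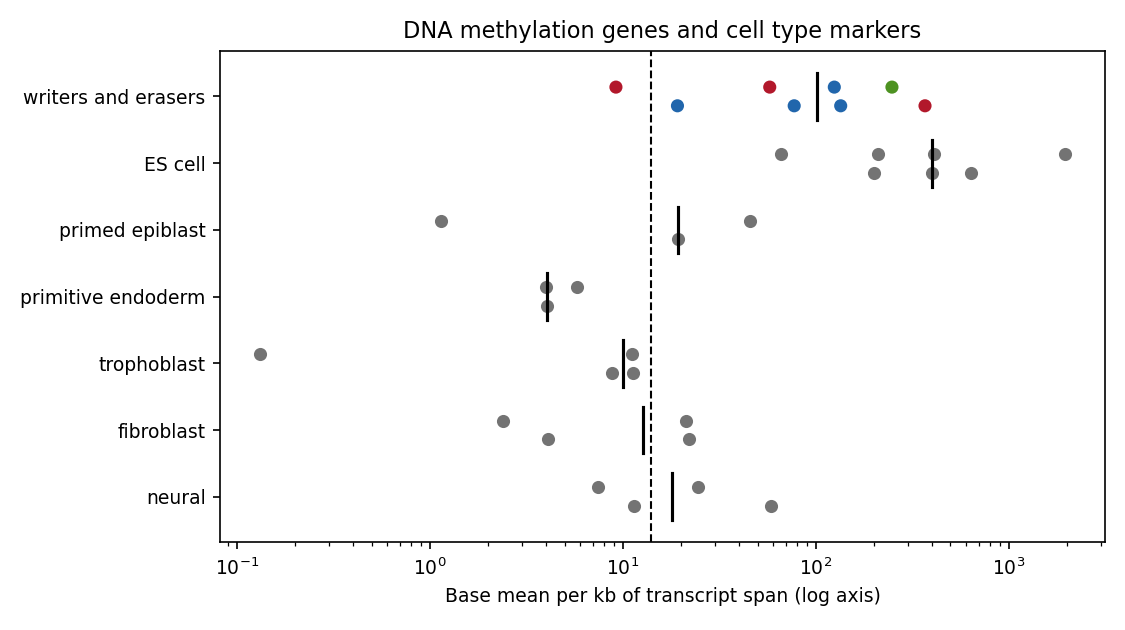
Base mean per kb of transcript span (log axis) of the 8 genes and of cell type markers by list, in grey; black bars are medians and the dashed line is the median entry at 14.05 per kb. ES cell markers (median 399.5 per kb) lie to the right of the other marker lists; *Foxa2* has no matched span and is not drawn.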

How the data were processed

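Nuclear RNA-seq libraries of *Rybp fl/fl;Yaf2-/-* ES cells (3 UNT, 3 OHT) were paired-end and strand-specific. The authors removed rRNA fragments with bowtie2, aligned to mm10 with STAR and then bowtie2, and counted reads on a filtered refGene set; versions are not given in the sources used here. The deposited base mean holds signal values that the authors made with DESeq2, by scaling counts to library size and averaging UNT and OHT alike. A further 6 deposited columns hold the authors' own comparison of OHT with UNT (log2 fold change, standard error, statistic, p-values and a threshold flag) and were not used. The test of OHT against UNT planned for counts per library was therefore not run, and library depth is unknown.

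Symbols came from RefSeq on GRCm38.p6 for 20450 of 20633 entries, and GENCODE vM21 raised this to 20560. A single GENCODE transcript on GRCm38, the assembly of mm10, was matched to 20236 entries and gave spans and exons. Percentiles count entries at or under a value among those above 0. Nested entries were compared where spans differed by at least 2000 bp and the shorter had a base mean of at least 20. The difference of nested entries, divided by the difference in span, gave the level between starts; this assumes that reads were counted over the whole span. Promoter sequences are those of RefSeq (GRCm38.p6). Python 3.11.15, numpy 2.4.6, pandas 2.3.3 and matplotlib 3.10.9 were used, and the steps were tested on simulated data.

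Named genes were all members with all their entries, the highest and lowest of each partner list, the markers and the targeted genes; *Hells*, *Zfp57*, *Ogt*, *Aire*, *Malat1* and *Jarid2* were named after their values were seen. The members and lists were chosen with earlier results of these data known.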

Additional observations from a re-analysis of the deposited data

How the results depend on the processing

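No paired analysis was possible because the values used here are pooled over all libraries. For the same reason leaving out a replicate, other normalizations and a filter on counts per library could not be run, and how far levels vary between replicates is unknown. Coding length as 3 times the protein length was not run for want of a protein table; coding length in the GENCODE annotation and RefSeq gene length were chosen in its place after seeing the data.

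The number of genes above the median entry was 7 or 8 under each of the 6 alternatives, with *Tet3* below it per kb. Their median percentile, 91.3, became 91.9 with entries at 0 included, 89.3 once entries under a base mean of 10 were dropped, 86.7 per kb of span and 88.5 per kb of exon. The ratio of the highest to the lowest level per kb, 40.0, became 36.2 with exon length, 39.0 with coding length and 54.6 with RefSeq gene length. *Tet1* ranked first and *Tet3* last per kb under each of these lengths. Exon length moved the ranks of 3 of the 8 genes (*Dnmt1*, *Dnmt3l* and *Uhrf1*), coding length those of 2, RefSeq gene length those of 0, and keeping the entry with the lowest base mean those of 2 (*Dnmt3a* and *Tet2*), and with it the level of *Dnmt3a* per kb was 75.9 in place of 19.2.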
